A study of Homo sapiens with 6 samples.

Results

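The genes of glycolysis, the pentose phosphate pathway, the tricarboxylic acid (TCA) cycle and galactose entry were followed in MM.1S cells, a line derived from multiple myeloma, a cancer of plasma cells. A list of 58 symbols was searched among the probe sets that the platform annotation pairs with exactly 1 symbol, and 32 were found, out of 14884 named genes in all. The other 26 were not analysed here, among them every phosphofructokinase, aldolase and enolase on the list, PKM, the PDK kinases and the cytosolic enzymes ACO1, IDH1 and MDH1, so the pathway was seen in pieces. The arrays covered 2 groups of 3. Both groups carried a 1 h pulse of Cfz, the usual abbreviation of the proteasome inhibitor carfilzomib, at a dose the labels do not give. For the next 12 h the control group had DMSO, the solvent, and the other group had ATRA (all-trans retinoic acid, a ligand of nuclear retinoic acid receptors) at 10 µM. Cells without Cfz were not analysed here, and since no label tells separate cultures from repeat arrays of the same one, the p-values measure only the spread between these samples, which may be technical.

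Glycolysis splits glucose into pyruvate in the cytosol. Pyruvate is then either reduced to lactate by lactate dehydrogenase or turned into acetyl-CoA by the pyruvate dehydrogenase complex, which feeds the TCA cycle in mitochondria. The pentose phosphate pathway branches off glucose phosphate and yields NADPH and the ribose phosphate of nucleotides, and galactose joins glycolysis through a short route that starts with its mutarotase and kinase. Proliferating tumour cells commonly send much of their pyruvate to lactate, and LDHA is a known target of MYC and of hypoxia-inducible factors.

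Each probe set has 1 linear intensity on each array, and differences are ATRA minus DMSO on the log2 scale. Array medians of intensity ran from 9.40 to 9.76, and log2 values of named genes correlated at 0.990 to 0.992 within a group and 0.985 to 0.987 between groups (across genes, which are not independent). Of 10 plasma cell and myeloma markers 7 were measured, and SDC1, CD38, XBP1, IRF4, SLAMF7 and MAF had mean log2 levels from 9.26 to 10.81, while POU2AF1 was at 4.13. Of these 7 markers CD38 (3.85-fold), SDC1 (1.80-fold) and XBP1 (1.46-fold) passed as higher in limma's test and 0 as lower. The groups of all 7 had no overlap, as those of 24.7% of all named genes and 37.7% of the 7442 genes in the brighter part of the array. With ATRA 4 of the 7 lay higher and 3 lower. The lower ones were SLAMF7 (log2 difference -0.313), POU2AF1 (-0.251) and IRF4 (-0.175), which did not pass. The part of these shifts in the differences described here was not tested. Of 27 markers of other cell types 16 were measured, with mean log2 levels from 2.21 for DCN to 4.91 for CD8A and 7.15 for KRT18. In limma's test 0 of these 16 passed, 2 had an unadjusted p under 0.05, and their summed log2 level ran from 59.1 to 62.4 on DMSO arrays and from 59.0 to 59.7 on ATRA arrays. In RNA from whole cultures, fewer cells of a kind and less RNA per cell cannot be told apart.

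Among the 32 genes, 3 passed an adjusted p of 0.05 in limma with Benjamini-Hochberg adjustment over all 14884 genes. GALM, the galactose mutarotase, rose 2.57-fold, TPI1, the triosephosphate isomerase, rose 1.47-fold, and LDHA, the lactate dehydrogenase subunit that favours lactate formation, was 1.47-fold lower. The other 29 did not pass, and 8 of the 32 had an unadjusted p under 0.05, as 17.9% of all named genes did. Over all named genes 1.73% were called higher and 2.07% lower, or 3.8% in all, against 9.38% of these genes. Brighter genes were called more often, at 6.96% of the 7442 genes in the brighter part of the array, where 28 of the 32 lay. Of these 7442 genes 2051 had an unadjusted p under 0.05 in limma, and of the 28 it was 7. With 3 called genes, no weight was put on the gap between the shares called.

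The stretches of 250 bases upstream of the annotated starts of the 3 called genes are shown because these genes moved in different directions, and the letters before their starts can be compared. They come from RefSeq on GRCh38.p14. The build behind the array values is not given in the sources used here. Capitals mark matches, on either strand, to an E-box (CACGTG, the site of MYC and related factors), a hypoxia core (ACGTG, which lies within every E-box, or the variant GCGTG) or a cyclic AMP response element (TGACGTCA). Nuclear receptor half-sites were searched as well, in the spelling AGGTCA and in the variants written GGGTCA, further as AGTTCA, and finally as GGTTCA. TPI1 and LDHA have 2 annotated starts each, and the first listed is shown. All 3 are on the plus strand, 5′ to 3′.
GALM, chr2:38665864-38666113: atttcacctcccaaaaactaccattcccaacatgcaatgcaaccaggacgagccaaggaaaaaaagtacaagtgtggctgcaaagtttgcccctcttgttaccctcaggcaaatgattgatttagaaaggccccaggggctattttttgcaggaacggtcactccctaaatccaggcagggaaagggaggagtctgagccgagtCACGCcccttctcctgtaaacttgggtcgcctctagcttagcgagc
TPI1, chr12:6867281-6867530: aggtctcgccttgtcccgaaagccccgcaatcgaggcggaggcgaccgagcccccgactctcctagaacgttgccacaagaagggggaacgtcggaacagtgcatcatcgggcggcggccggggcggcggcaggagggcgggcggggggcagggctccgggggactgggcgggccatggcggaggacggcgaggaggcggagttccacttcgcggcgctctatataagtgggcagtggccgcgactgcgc
LDHA, chr11:18394313-18394562: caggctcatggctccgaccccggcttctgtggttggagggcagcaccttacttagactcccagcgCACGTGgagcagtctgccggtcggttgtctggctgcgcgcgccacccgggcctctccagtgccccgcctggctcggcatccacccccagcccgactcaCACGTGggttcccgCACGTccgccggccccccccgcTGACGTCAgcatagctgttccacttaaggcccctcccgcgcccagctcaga

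The LDHA stretch held 2 E-boxes, which begin 185 and 87 bases before the start, a cyclic AMP response element that begins 51 bases before it, and a hypoxia core outside the E-boxes at 73 bases. The GALM stretch held 1 hypoxia core, 46 bases before the start, and none of the other motifs. The TPI1 stretch held none of the 4. Of 35116 such stretches in the RefSeq table, 6.34% had an E-box, 43.2% a hypoxia core, 33.8% a half-site and 1.65% the cyclic AMP element. Of the 32 genes 30 had a listed stretch, and by their first listed start 3 had an E-box, 16 a hypoxia core, 10 a half-site and 1, LDHA, the cyclic AMP element. A match to these letters does not show that a factor was bound.

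Galactose entry held the gene with the largest difference of the 32. GALM, which turns the beta form of galactose into the alpha form that the kinase accepts, had intensities of 275, 305 and 290 on DMSO arrays and 704, 743 and 789 on ATRA arrays. Every ATRA array lay more than 2-fold above every DMSO array. The means were 290 ± 15.2 and 745 ± 42.8 (SD, n = 3), a log2 difference of 1.36 (SE 0.094, adjusted p = 0.000633 in limma). Among all named genes this difference ranked at place 48 by size, and the adjusted p stayed under the threshold whichever array was left out (0.00435 to 0.00717). In RefSeq GALM overlaps the gene LOC124905993, whose part in the GALM signal was not tested. Of the 32 genes 16 overlap another RefSeq gene. GALK1, the galactokinase that acts next, was at 58.8, 51.1 and 55.4 with DMSO and at 58.7, 58.7 and 54.0 with ATRA. Its groups overlapped, and its interval, from -0.17 to 0.28, leaves out a change of the size of GALM's.

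**Figure D1:**
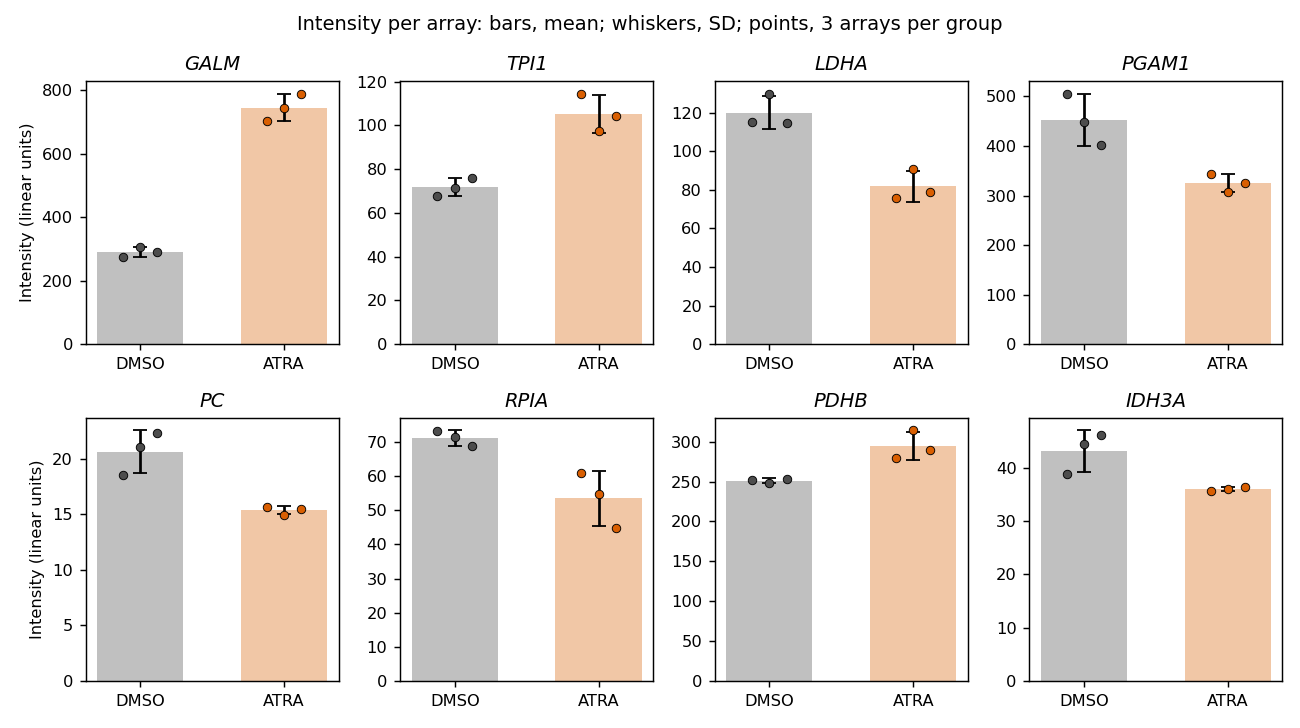
Intensity (linear units, axes from 0) of 8 genes on the 6 arrays, with bars for group means, whiskers for the SD and points for arrays. GALM rose from 290 to 745 and TPI1 from 71.8 to 105, LDHA was lower at 81.8 against 120, and PGAM1, PC, RPIA, PDHB and IDH3A did not pass the adjusted threshold although their groups do not overlap.

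Glucose capture and the upper steps were represented by 6 genes. The 4 hexokinase family genes, whose products phosphorylate glucose as it enters the cell, had 0 passing in limma and 0 with an unadjusted p under 0.05. HK2, the inducible hexokinase of many tumours, was at 119, 134 and 114 with DMSO and 141, 116 and 128 with ATRA, with overlapping groups (log2 difference 0.07, 95% interval -0.19 to 0.34). HK1, the widely expressed hexokinase, was at 44.6, 41.3 and 39.2 against 37.8, 34.4 and 38.2. The HK1 groups did not overlap, but the difference of -0.18 did not pass (adjusted p = 0.402). HKDC1 had the largest difference of the family, -0.24, at 8.44, 5.91 and 8.47 against 6.59, 6.32 and 6.14, with overlap. HKDC1 and HK3 (0.23) had means under every array's median intensity, where the arrays say little about a change.

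GPI, which turns glucose phosphate into fructose phosphate, was at 2750, 2783 and 2781 with DMSO and 2749, 2763 and 2660 with ATRA. The groups overlapped, and the interval of the log2 difference, -0.22 to 0.17, spans 0. TPI1, which interconverts the pair of trioses that aldolase makes, differed in the opposite direction from the means of the steps after it. Its intensities were 67.8, 71.5 and 76.0 with DMSO and 115, 97.3 and 104 with ATRA, with no overlap. The means of 71.8 ± 4.11 and 105 ± 8.68 (SD, n = 3) differed by 0.55 on the log2 scale (SE 0.10, adjusted p = 0.0310 in limma). This call was lost whichever array was left out (adjusted p 0.0560 to 0.112). In RefSeq TPI1 has 4 pseudogenes named after it and overlaps the gene SPSB2, and the part of such copies in its signal was not tested.

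The lower steps, which turn triose phosphate into pyruvate and return ATP and NADH, had 3 measured genes. In limma 0 passed and 1 had an unadjusted p under 0.05. All were lower in mean, as 52.9% of all named genes and 59.2% of the brighter ones were. PGAM1, which moves the phosphate of phosphoglycerate, was at 506, 449 and 403 with DMSO and 343, 307 and 325 with ATRA. All ATRA values lay under all DMSO values, with means of 452 ± 51.6 and 325 ± 18.2 (SD, n = 3). The log2 difference of -0.47 (SE 0.11) missed the threshold in limma (adjusted p = 0.0733) and passed it when eBayes used a trend and robust option (0.00280, where 5.6% of all genes were called lower) and when the dimmer 50% of genes were left out (0.0257, where 9.5% were). The identity of this probe set is in doubt. The 10 named probe sets numbered nearest to it belong, in 0 of 10 cases, to genes of the chromosome of PGAM1, whereas for each of the other 31 genes it was 10 of 10. RefSeq lists 13 pseudogenes named after PGAM1, and whether this probe set reads one of them was not tested.

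GAPDH, which oxidises glyceraldehyde phosphate and is often taken as a reference gene, was at 346, 336 and 258 with DMSO and 296, 268 and 268 with ATRA. The groups overlapped because of the third DMSO array (log2 difference -0.17, adjusted p = 0.579). GAPDH has 65 pseudogenes named after it in RefSeq, so its value too is uncertain. PGK1, the phosphoglycerate kinase, was at 238, 256 and 240 against 228, 217 and 214. Its groups did not overlap, and its difference of -0.16 did not pass (adjusted p = 0.418).

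Of the lactate dehydrogenase subunit genes LDHA passed and LDHB did not. LDHA was at 115, 130 and 115 with DMSO and 75.6, 90.9 and 79.1 with ATRA. The highest ATRA value lay below the lowest DMSO value, and the means were 120 ± 8.57 and 81.8 ± 8.04 (SD, n = 3). LDHA fell by 0.55 on the log2 scale (SE 0.11, adjusted p = 0.0402 in limma), a call that leaving out an array ended in 5 of 6 fits (up to 0.130) and did not end for ATRA replicate 2 (0.0497). LDHA has 6 pseudogenes named after it in RefSeq, whose part in the signal was not tested. LDHB, whose product favours the return of lactate to pyruvate, was at 361, 352 and 362 with DMSO and 362, 353 and 364 with ATRA. The LDHB arrays differed by less than the spread between replicates (log2 difference 0.005, 95% interval -0.19 to 0.20).

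Because pairs of genes share an array, the log2 ratio of LDHA to LDHB was also taken within each array. It was -1.65, -1.44 and -1.66 with DMSO and -2.26, -1.96 and -2.21 with ATRA, and the groups did not overlap. The ratio was lower by 0.56 (SE 0.12), or 1.47-fold. Such ratios were computed for 6 pairs of isozymes, subunits or neighbouring steps, chosen after the values were seen, and the groups separated in each. The exact two-sided permutation test over 3 against 3 arrays gave p = 0.10 for each, before and after adjustment over the 6, which is the smallest p this design allows.

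The ratio of GALM to GALK1 was higher by 1.31 (SE 0.13) and that of TPI1 to GAPDH by 0.72 (SE 0.18). The ratio of HK2 to HK1 was higher by 0.25 (SE 0.094). In the enzyme complexes, PDHB over PDHA1 was higher by 0.29 (SE 0.093) and IDH3A over IDH3B lower, at -0.19 (SE 0.049). Since the pairs were picked with their values in view, the separation of the groups is a description and supports no claim that the genes of a pair changed unequally.

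**Figure D2:**
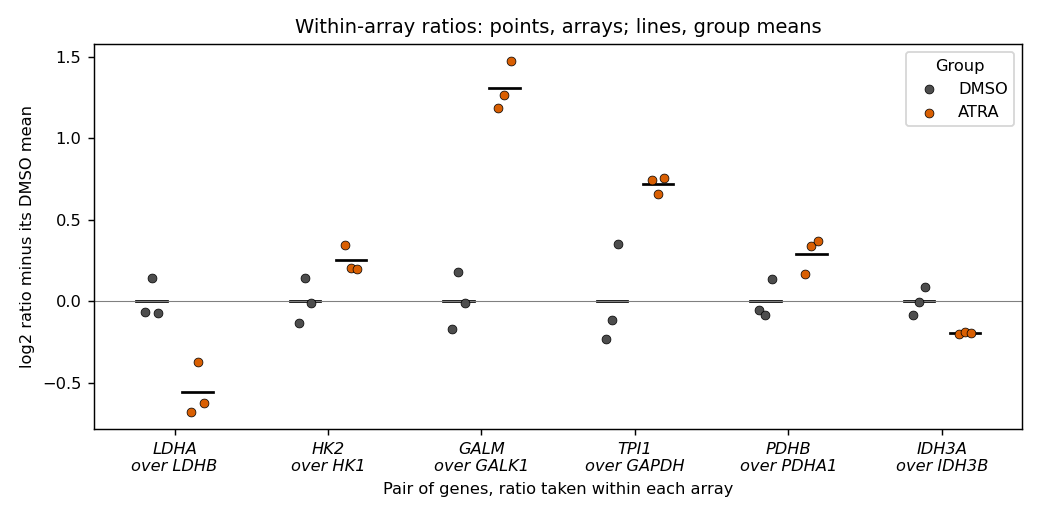
Log2 ratio of 6 pairs of genes within each array, drawn relative to its mean on DMSO arrays, with points for arrays and lines for group means. The ATRA arrays lie apart from the DMSO arrays in each pair, most widely for GALM over GALK1 (1.31) and least for IDH3A over IDH3B (-0.19).

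The pyruvate dehydrogenase complex, the gate from pyruvate to acetyl-CoA, had all 4 listed genes measured. In limma 0 passed and 1 had an unadjusted p under 0.05. That one was PDHB, the beta subunit of the first enzyme, at 252, 248 and 254 with DMSO and 280, 314 and 290 with ATRA. The groups did not overlap, with means of 251 ± 3.15 and 295 ± 17.9 (SD, n = 3), and the difference of 0.23 (SE 0.090) did not pass (adjusted p = 0.237). PDHA1, the alpha subunit of the same enzyme, differed by -0.06, DLAT, the acetyltransferase core, by -0.03 and DLD, the dihydrolipoamide dehydrogenase shared with the TCA cycle, by -0.01. The groups of these 3 overlapped. PDP1, the phosphatase that activates the complex, was dim, at 9.93, 8.93 and 7.50 against 10.1, 8.29 and 9.85, with overlap (adjusted p = 0.757).

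Of the side reactions of pyruvate and malate, PC and PCK2 were measured, 0 passed in limma, and 1 had an unadjusted p under 0.05. PC, the carboxylase that refills oxaloacetate, was at 18.5, 21.0 and 22.3 with DMSO and 15.7, 14.9 and 15.5 with ATRA. The ATRA values lay closely together under all DMSO values, with means of 20.6 ± 1.92 and 15.4 ± 0.380 (SD, n = 3). The log2 difference of -0.42 (SE 0.10) missed the threshold (adjusted p = 0.0742), at a level within the range of markers of other cell types. PCK2, the mitochondrial enzyme that makes phosphoenolpyruvate, was at 21.6, 22.4 and 23.1 against 28.6, 15.7 and 21.95. ATRA arrays lay on either side of the DMSO arrays, and the difference of -0.06 became 0.16 without ATRA replicate 2.

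The pentose phosphate pathway had all 6 listed genes measured. In limma 0 passed, 1 had an unadjusted p under 0.05, and the median difference was -0.11. In mean 5 were lower, as 52.9% of all named genes and 59.2% of the brighter ones were. RPIA, the isomerase that makes ribose phosphate, was at 73.3, 71.4 and 68.8 with DMSO and 60.9, 54.7 and 44.9 with ATRA. The groups did not overlap, and the ATRA arrays were spread more widely (71.2 ± 2.30 against 53.5 ± 8.11, SD, n = 3). The log2 difference was -0.42 (SE 0.13, adjusted p = 0.134 in limma), and -0.30 without ATRA replicate 3.

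PGD, which makes NADPH in the oxidative branch, was at 836, 821 and 857 with DMSO and 746, 757 and 794 with ATRA, with no overlap (-0.13, adjusted p = 0.487). TALDO1, the transaldolase of the non-oxidative branch, was at 303, 284 and 288 against 261, 274 and 248, also with no overlap (-0.16, adjusted p = 0.415). The test did not separate these differences from the spread. TKT, the transketolase, was at 1364, 1367 and 1313 against 1344, 1370 and 1268, with overlapping groups (-0.02). PGLS, the lactonase (0.02), and RPE, the epimerase (-0.10), overlapped as well.

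In the mitochondrial TCA cycle 6 of 12 listed genes were measured, 0 passed in limma and 1 had an unadjusted p under 0.05. Their median difference was -0.15, and 5 were lower in mean, as 52.9% of all named genes and 59.2% of the brighter ones were. Of the 6 genes 4 (66.7%) lay lower with no overlap, as 14.8% of all named genes and 24.5% of the brighter ones did. IDH3A, the catalytic subunit of the NAD-linked isocitrate dehydrogenase, was at 38.8, 44.6 and 46.2 with DMSO and 35.7, 36.1 and 36.5 with ATRA. All ATRA arrays lay below (43.2 ± 3.89 against 36.1 ± 0.364, SD, n = 3), and the difference of -0.25 (SE 0.099) did not pass (adjusted p = 0.233). The other subunits of that enzyme overlapped between groups, IDH3B at -0.06 and IDH3G at 0.001.

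CS, the citrate synthase that opens the cycle, was at 335, 320 and 348 with DMSO and 319, 260 and 310 with ATRA. The CS groups just failed to overlap (-0.18, adjusted p = 0.462). The oxoglutarate dehydrogenase complex was represented by OGDH, its first enzyme, and DLST, its succinyltransferase. OGDH was at 1150, 1146 and 1182 against 977, 1143 and 1067, and DLST at 124, 144 and 119 against 111, 112 and 114. Both had every ATRA array below every DMSO array, and neither passed (-0.13, adjusted p = 0.544, and -0.20, adjusted p = 0.379).

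**Figure D3:**
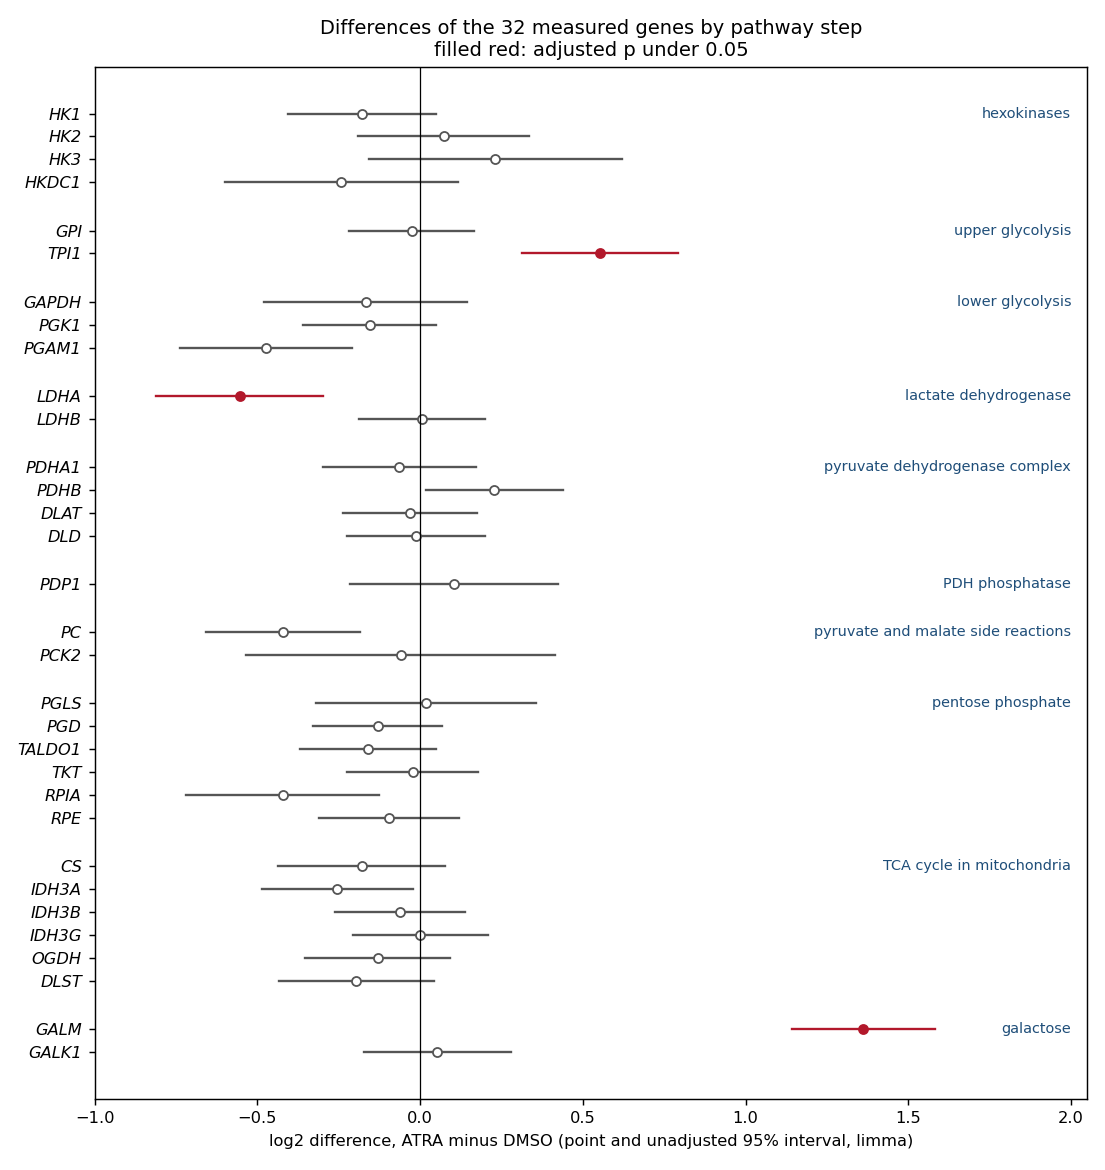
Log2 difference (ATRA minus DMSO) of each of the 32 genes, ordered by pathway step, with the unadjusted 95% interval from limma. Filled points mark GALM (1.36), TPI1 (0.55) and LDHA (-0.55), which passed, while the TCA cycle and pentose phosphate genes lie mostly left of 0 with intervals that in most cases span it.

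Across the 32 genes 22 were lower (68.8%) and 10 higher in mean with ATRA. Of all named genes 52.9% were lower, and of the brighter 7442 it was 59.2%. The median difference was -0.06, beside -0.015 for all named genes and -0.05 for the brighter 7442. The 3 ATRA values lay below the 3 DMSO values in 12 genes (37.5%), where 14.8% of all named genes and 24.5% of the brighter ones did so. They lay above in 3 genes (9.38%), against 9.86% and 13.2%. In either direction 46.9% of the 32 had no overlap, against 24.7% of all named genes and 37.7% of the brighter 7442. These shares describe the list and are no test of it, since the genes share arrays and the list was chosen with results of these data known. A difference under 0.1 in size was seen in 13 of the 32, and in 5552 of the 14884 named genes.

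**Figure D4:**
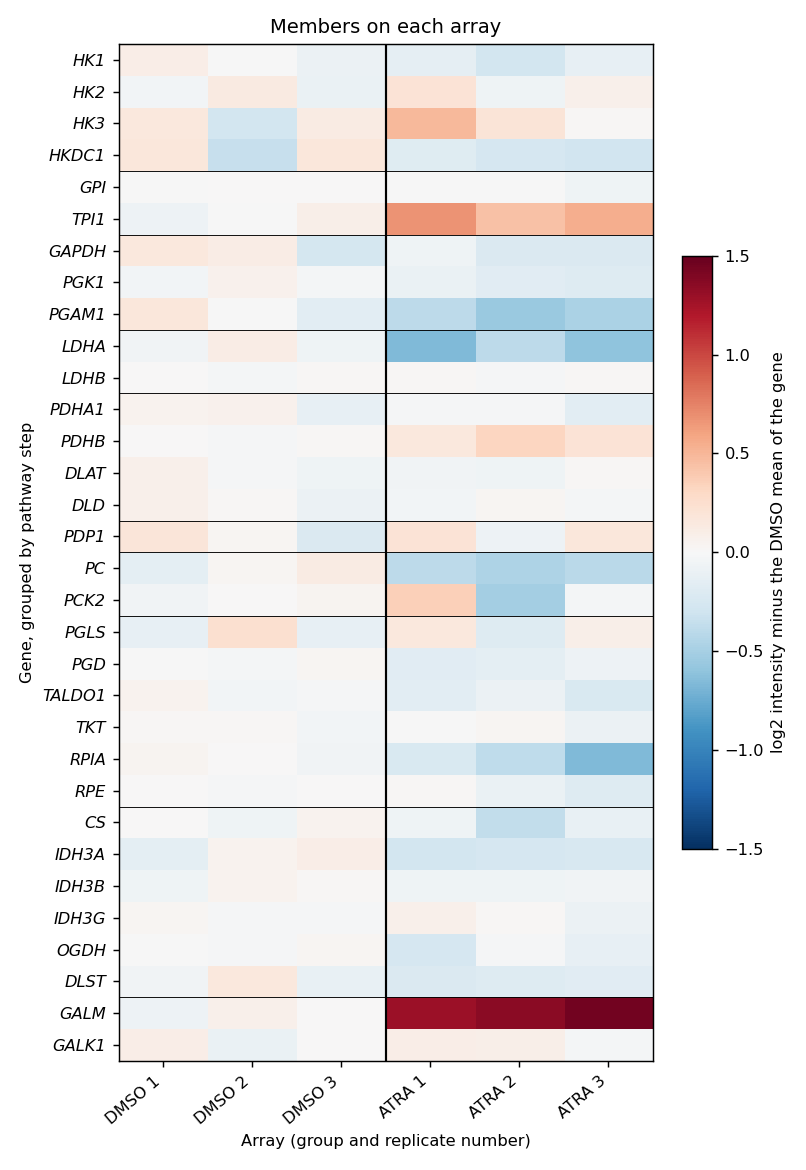
Log2 intensity of each gene on each array minus its DMSO mean (colour scale from -1.5 to 1.5), with genes grouped by step and the groups parted by a line. GALM and TPI1 are among the genes raised on all 3 ATRA arrays, and LDHA, PGAM1, PC and RPIA among those below the DMSO mean on all 3. PCK2 goes both ways among the ATRA arrays.

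Other genes of these pathways came from lists that name carriers, further enzymes and regulators. Of 129 such genes 61 were measured, 4 rose, 1 fell and 56 did not pass. That was 8.2% called against 3.8% of all named genes (1.73% higher and 2.07% lower) and 6.96% of the brighter ones. These shares, and those of the single lists below, are no test, since the lists were chosen with earlier results of these data known. PRPS2, which turns ribose phosphate into the precursor of nucleotides, was at 442, 478 and 472 with DMSO and 283, 296 and 265 with ATRA. It was 1.65-fold lower with no overlap (log2 difference -0.72, SE 0.092, adjusted p = 0.00815 in limma). PRPS2 was the 1 of 5 further pentose phosphate genes that passed. TKTL1, a transketolase relative, was higher without passing (0.97, adjusted p = 0.0596).

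ACSS1, the mitochondrial enzyme that makes acetyl-CoA from acetate, was the 1 of 7 further TCA-linked genes that passed. It was at 268, 302 and 261 with DMSO and 434, 495 and 413 with ATRA, a 1.61-fold rise with no overlap (adjusted p = 0.0184 in limma). With 1 array left out ACSS1 lost its call in 4 of 6 fits (up to 0.0799), namely without DMSO replicates 1 and 3 and ATRA replicates 1 and 2. ACLY and ACSS2, which make cytosolic acetyl-CoA, differed by -0.10 and -0.14 and did not pass.

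In the list of HIF and hypoxia genes 2 of 15 measured rose, where 1.73% of all named genes did, the median difference was -0.03, and 7 were higher and 8 lower in mean. ANKRD37 was at 39.6, 34.5 and 43.5 with DMSO and 70.5, 84.6 and 82.5 with ATRA, a 2.02-fold rise (adjusted p = 0.00697 in limma). DDIT4, an inhibitor of mTORC1 signalling, was the other (2.71 on the log2 scale). The other 13 did not pass, with differences from -0.25 for ADM to 0.36 for BNIP3L, whose ATRA arrays lay above its DMSO arrays.

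Of 17 measured regulators of glucose use, SREBF1, which drives lipid synthesis genes, was the 1 that passed (3.15). With SREBF1 included, 4 had an unadjusted p under 0.05 in limma, as 17.9% of all named genes did. Without overlap 5 lay higher, as 9.86% of all named genes did, and 1 lower, as 14.8% did. MYC differed by 0.17 with no overlap (adjusted p = 0.350 in limma), and TXNIP, an inhibitor of glucose uptake, by -0.06. In the remaining lists 0 passed in limma. Of the 2 measured carriers, MPC1 and MPC2, which bring pyruvate into mitochondria, 0 had an unadjusted p under 0.05, and MPC2 had the larger difference (-0.08). Of 12 further glycolysis and gluconeogenesis genes 1 did, PDPR (-0.27, named after its value was seen), a regulatory subunit of the phosphatase of the pyruvate dehydrogenase complex. The largest difference in that list was that of PGK2, at -0.30. Of 3 further galactose and fructose genes 0 did, and KHK had the largest difference, 0.22.

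**Figure D5:**
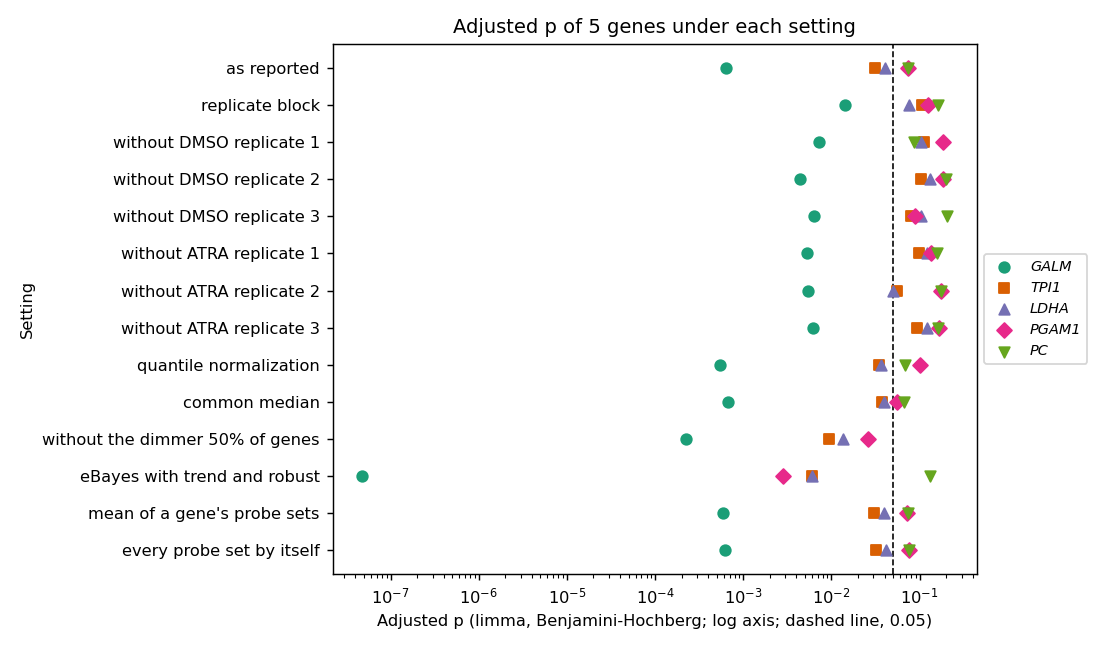
Adjusted p of GALM, TPI1, LDHA, PGAM1 and PC (log axis) under each of the 14 settings, with the threshold of 0.05 as a dashed line. PC has no point where the dimmer 50% of genes were left out, since it was not tested there. GALM lies left of the line under each setting (at most 0.0144), and PGAM1 crosses it to the left under 2 settings. TPI1 crosses it whichever array is left out and LDHA in 5 of 6 such fits, and both cross it when replicates are blocked.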

How the data were processed

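Total RNA of 6 samples was labelled with a whole-transcript kit and hybridised to 1-colour arrays, per the labels' protocols. RMA and limma are named, without role or version, in the submitters' processing notes. The deposited values are linear intensities as the authors left them, 1 per probe set, with 0 at or below 0 among 53617 probe sets. They were turned to log2 with no pseudocount. The platform annotation gave 16098 probe sets 1 symbol, 0 several and 37519 none, and each of 14884 symbols took its probe set with the highest mean. All 32 genes had 1 probe set each, shared its values with 0 other probe sets and matched RefSeq by gene ID.

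Groups were compared with limma 3.58.1 in R 4.3.3 (lmFit, eBayes, no block, two-sided, no filter), and p-values were adjusted by Benjamini-Hochberg across the 14884 genes. SDs are over 3 arrays, folds are ratios of geometric means, and intervals are unadjusted at 95%. The number of arrays limits the precision. The steps were tested on simulated data. Values on every array are given for called genes, for the largest difference in each step and for others that complete a step. The members and lists were chosen with earlier results of these data known. Within-array ratios were tested with exact permutation in scipy 1.17.1. Alternatives were a replicate block, leaving out each array, 2 normalizations, leaving out the dimmer 50% of genes, eBayes with trend and robust, and 2 ways of treating probe sets.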

Additional observations from a re-analysis of the deposited data

How the results depend on the processing

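GALM kept its direction and its call under all 13 alternatives. TPI1 and LDHA kept their directions under all 13, and under quantile normalization, a common median and each way of treating probe sets the called genes numbered 2 higher and 1 lower, as reported. With 1 array left out 1 gene was called higher in each fit and 0 to 1 lower. Same-numbered arrays correlated at 0.017, 0.0087 and 0.016 in their deviations from the group means, so the numbers were not taken to pair samples, although each array correlated best with its own number. With the replicate block 1 gene was called higher (GALM, adjusted p = 0.0144) and 0 lower, with TPI1 at 0.107 and LDHA at 0.0763, and over all genes 113 higher and 87 lower, against 257 and 308. eBayes with trend and robust, and also leaving out the dimmer 50% of genes, called 2 lower, LDHA and PGAM1. Over all genes these settings called 494 higher and 833 lower, and 436 and 707, and leaving out 1 array gave 112 to 152 higher and 95 to 165 lower. Of the other pathway genes, trend and robust called 7 higher and 2 lower. The cause of these shifts was not tested, beyond fewer arrays or genes in a fit.

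The median difference of the 32 genes ran from -0.087 to -0.049 with 1 array left out and was -0.089 with a common median, where the median of all genes was -0.041. Lower glycolysis ran from -0.300 to -0.123, the pentose phosphate genes from -0.131 to -0.085 and the TCA genes from -0.171 to -0.127. With a common median the pentose phosphate, TCA and galactose medians were -0.139, -0.180 and 0.682, and with quantile normalization the TCA and galactose medians were -0.119 and 0.728. Without the dimmer genes PCK2 alone stood for the pyruvate side reactions (-0.060), and PC, HK3, HKDC1 and PDP1 were not tested.

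Signs turned for 8 genes near 0 that did not pass. With 1 array left out the ranges were -0.008 to 0.019 for LDHB, -0.061 to 0.006 for DLAT, -0.060 to 0.025 for DLD, -0.006 to 0.197 for PDP1, -0.267 to 0.164 for PCK2, -0.051 to 0.139 for PGLS, -0.045 to 0.010 for TKT and -0.034 to 0.046 for IDH3G. A common median gave LDHB -0.021, PGLS -0.009 and IDH3G -0.025, and quantile normalization gave DLD 0.026 and TKT 0.030. Low signal limits HK3, HKDC1 and PDP1, whose means lay under every array's median.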
